A study of Homo sapiens with 4 samples.

Results

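The genes described here are the human cadherins named CDH with a number and all protocadherins, 89 of the 19734 genes in the deposited table, chosen by symbol alone. PolyA RNA was sequenced from BE(2)C:MYCN-ORF cells, which derive from BE(2)C, a human neuroblastoma cell line with amplified MYCN, to which a MYCN open reading frame had been added. All 4 groups carried that reading frame, and what drives it is not given in the sources used here. The groups were siCon with miRCon, siCon with let-7a, siMYCN with miRCon and siMYCN with let-7a, where siCon and siMYCN are a control siRNA and one against MYCN, and miRCon and let-7a are a control mimic and a mimic of the let-7a miRNA. Cells were harvested at 48 hours after transfection, and each group was 1 library, so no group has a replicate.

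Cadherins are calcium-dependent adhesion proteins of the cell surface. Classical type I and type II cadherins bind cadherins of the neighbouring cell and are linked by catenins to actin. Protocadherins carry the same kind of extracellular repeats but lack the catenin-binding tail. The clustered protocadherins lie in 3 tandem arrays called alpha, beta and gamma, and each neuron switches on a small set of them by promoter choice, which gives it a surface identity used in self-avoidance. In neural crest tissues, from which neuroblastoma arises, switches between cadherins accompany delamination and migration. MYCN is a transcription factor of the MYC family, and let-7 miRNAs lower target mRNAs through sites in the 3′UTR that pair with bases 2 to 8, the seed.

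Of the 89 genes, 29 had a mean of at least 5 over the 4 libraries on the back-transformed scale, which resembles TPM, a read share corrected for transcript length, and only these 29 entered the test or are described singly. The remaining 60 lay under 5, 25 of them under 1, and 5 were listed at 0 in every library (CDH1, CDH16, CDH17, CDH19 and PCDH11X). PCDH11X has a near-identical copy, PCDH11Y, whose mean was 0.906. CDH1 encodes E-cadherin, the epithelial cadherin. Just inside the limit was PCDHGA4 with a mean of 5.60, and just outside was PCDH20 with 4.41. Of the 29, 6 had a mean under 5 in the siCon libraries and passed only through their siMYCN values (PCDHB2, PCDHB4, PCDHB14, PCDHB15, CDH10 and PCDHGA4), so counts over the 29 favour siMYCN by construction.

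The back-transformed values summed to between 855811 and 862049 per library, and the read depth behind them is unknown because TPM-like values keep none. MYCN itself was 1449 and 1433 in the siCon libraries (here and below the control mimic is given first and let-7a second) and 1238 and 1197 in the siMYCN libraries. This is a log2 fold change of -0.24 ± 0.0468 (SE) that missed the threshold (limma, adjusted p = 0.0584). The value does not separate the cells' own MYCN from the added reading frame, and whether siMYCN reaches the latter is not given in the sources used here. All 9 neuroblastoma markers were at a mean of at least 5, with PHOX2A between 566 and 644. Mitochondrially encoded genes took 31.7% and 32.1% of the total under siCon and 28.4% and 29.3% under siMYCN. That share moves with the siRNA, and its part in the results was not tested.

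The clustered protocadherins lie together at chr5:140786136-141512981 (GRCh38, GENCODE 29), and 53 of the 89 genes belong to them. Promoter windows were matched by symbol for 70 of the 89 genes and 26 of the 29 (RefSeq, GRCh38.p14, 250 bases before to 50 after the start). The sequences below are shown because most beta genes were higher in both siMYCN libraries. They are 48 bases of each tested beta promoter that contains the 8-base word most common in the beta promoters, GGTGGCGC, which is in capitals. All lie on the plus strand.
PCDHB2 (chr5:141094535-141094582): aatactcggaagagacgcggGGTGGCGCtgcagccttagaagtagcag
PCDHB4 (chr5:141121714-141121761): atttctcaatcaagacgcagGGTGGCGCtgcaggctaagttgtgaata
PCDHB8 (chr5:141177768-141177815): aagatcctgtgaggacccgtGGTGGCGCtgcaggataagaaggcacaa
PCDHB16 (chr5:141182301-141182348): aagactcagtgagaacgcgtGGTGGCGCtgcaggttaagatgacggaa
PCDHB14 (chr5:141223254-141223301): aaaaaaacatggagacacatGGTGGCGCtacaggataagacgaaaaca
PCDHB15 (chr5:141245305-141245352): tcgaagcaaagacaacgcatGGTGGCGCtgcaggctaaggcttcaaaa
The word was present in 13 of 14 beta promoters and in 2.74% of all 27305 genes with a promoter entry, on either strand. The word was picked because it is common in these promoters, so its count there is a description.

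The promoters of the other arrays held different words around the same core. For comparison, 2 tested alpha promoters and 2 tested gamma promoters are given with their own commonest word in capitals, also on the plus strand.
PCDHA2 (chr5:140794773-140794820): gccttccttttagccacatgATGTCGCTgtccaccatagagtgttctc
PCDHA10 (chr5:140855833-140855880): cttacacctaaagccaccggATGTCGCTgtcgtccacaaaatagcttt
PCDHGB1 (chr5:141350019-141350066): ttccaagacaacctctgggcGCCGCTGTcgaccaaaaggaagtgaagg
PCDHGC3 (chr5:141475874-141475921): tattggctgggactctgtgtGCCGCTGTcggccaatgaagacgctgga
The alpha word ATGTCGCT was in 9 of 13 alpha promoters and 0.282% of all genes. The gamma word GCCGCTGT was in 11 of 20 gamma promoters and 1.98% of all genes. The letters CGCT overlap all 3 words when the beta word is followed by T, and alone they occur in 71.9% of all promoters. CACGTG, the E-box word that MYC proteins are known to bind, was in 8.77% of all promoters. It was in 3 of 13 alpha promoters, in 0 of 14 beta and in 0 of 20 gamma promoters. Of the 26 tested genes with a promoter entry, PCDHA10 and PCDHA11 held it. CDH11, CDH24 and PCDH10 had no entry and were not searched. A match is only letters in a window of 300 bases.

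A total of 4 genes passed the test for siMYCN. CDH2, CDH11 and PCDHB8 rose and CDH24 fell, so the 2 most abundant cadherins of these cells, CDH2 and CDH24, moved in opposite directions. The test was an additive limma fit of both treatments to log2(value + 1) in 9324 genes, with Benjamini-Hochberg adjustment, and its only residual is the departure from additivity among the 4 libraries. By this test 3 of the 29 genes were called higher, against 2.07% of all genes, and 1 was called lower, against 1.36% of all genes. An unadjusted p under 0.05 was reached by 17 of the 29, 13 higher and 4 lower, against 26.4% of all genes in either direction. All 4 calls were lost without limma's variance trend or with no filter on low values, when limma called 0 genes of the table (2221 and 2791 at an unadjusted p under 0.05). After rescaling by median ratios the table's calls went from 193 higher and 127 lower to 334 higher and 409 lower, and 6 of the 29 were higher and 4 lower.

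CDH2 encodes N-cadherin, the type I cadherin of neural and mesenchymal cells, and had the highest mean of the 89 genes, 154 (chr18:27950966-28177446, minus strand). CDH2 was 108 and 112 under siCon and 169 and 228 under siMYCN. Both siMYCN libraries were above both siCon libraries, and the highest value was with let-7a. The log2 fold change for siMYCN was 0.83 ± 0.108 (limma, adjusted p = 0.0344), made up of 0.65 for the control-mimic pair and 1.02 for the let-7a pair. No other type I cadherin reached a mean of 5. CDH4, or R-cadherin, was nearest at 3.98.

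CDH11 encodes a type II cadherin of mesenchymal cells (chr16:64943753-65126112, minus strand). CDH11 was 8.03 and 9.98 under siCon and 29.4 and 33.6 under siMYCN. The groups were far apart and the mimic made little difference to either of them. The log2 fold change of 1.70 ± 0.139 was the largest of the 29 genes (limma, adjusted p = 0.0214), and the ratio of mean levels was 3.50.

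CDH24, another type II cadherin that binds catenins (chr14:23047062-23057538, minus strand), went the other way. CDH24 was 127 and 119 under siCon and 76.1 and 74.8 under siMYCN. The ranges did not overlap, and the mimic again made little difference within either siRNA. The log2 fold change was -0.69 ± 0.0801 (limma, adjusted p = 0.0301). With siCon and the control mimic CDH24 stood above CDH2, at 127 against 108, and with siMYCN and let-7a CDH2 stood above CDH24, at 228 against 74.8, on a scale that accounts for transcript length.

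CDH10, a type II cadherin of the brain, was 4.20 and 4.57 under siCon and 7.54 and 8.54 under siMYCN. The groups did not overlap, but its log2 fold change of 0.75 ± 0.206 missed the threshold (limma, adjusted p = 0.101). CDH10 also passed the filter only through its siMYCN values. Among all 13 type II cadherins, without a filter, 8 had both siMYCN libraries above both siCon libraries and 2 had both below, against 28.9% and 18.5% of all genes with any value. The type II members under a mean of 5 never exceeded 3.14.

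Markers of other cell types were read beside CDH2 and CDH11, since both are also made by mesenchymal cells. Of 6 fibroblast markers 4 were at a mean of at least 5, with LUM the highest, and their summed level was 185 and 155 under siCon and 202 and 158 under siMYCN, so the groups overlapped. That sum is mostly LUM, and within the list DCN, a fibroblast proteoglycan gene, was 24.3 and 19.1 under siCon and 28.4 and 35.1 under siMYCN, so it moved with the siRNA. The part of DCN in the cadherin values was not tested. COL1A2 was at most 0.185. Of the Schwann-like markers, S100B was 3.06 and 5.26 under siCon and 6.43 and 7.92 under siMYCN, and so moved with the siRNA, while SOX10 was at most 2.11. Their part in the cadherin values was not tested. Of 5 epithelial markers 1 reached a mean of 5 (KRT18, between 5.31 and 9.01), and of 3 blood markers none did, with HBB listed at 0. In bulk RNA, fewer cells of a kind and less RNA per cell cannot be told apart.

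**Figure D1:**
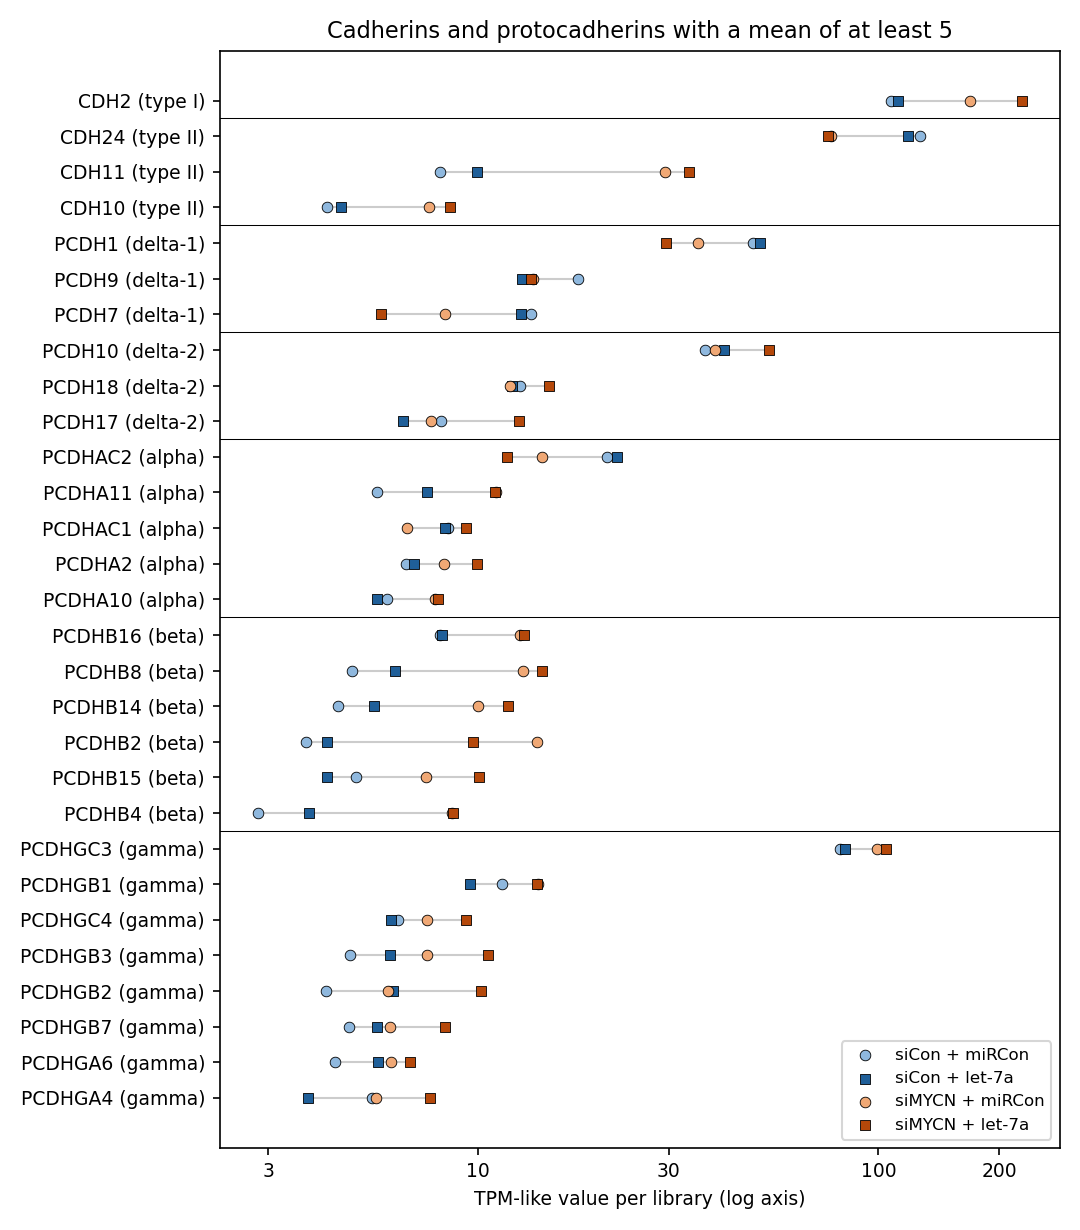
TPM-like value (log axis) of the 29 genes with a mean of at least 5, grouped by family, 1 point per library; circles are the control mimic, squares let-7a, blue siCon and orange siMYCN. CDH11 and the 6 beta genes have both siMYCN points to the right of both siCon points, while CDH24, PCDH1, PCDH7 and PCDHAC2 have them to the left.

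The beta protocadherins were higher as an array in both siMYCN libraries. The beta genes have no constant exon of their own array and each is a single-exon gene. Summed over all 16, with no filter, their level was 40.1 and 44.4 under siCon and 82.1 and 90.9 under siMYCN. The siMYCN to siCon ratio was 2.05 for either mimic. A sum has no replicate and no test. Both siMYCN libraries lay above both siCon libraries in 12 of the 16 beta genes and below in 0. Over all 84 of the 89 genes with any value the same held for 50 genes higher and 6 lower, against 28.9% and 18.5% of all 16330 genes with any value. Most of the 50 are clustered genes, which share sequence and are not separate observations.

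PCDHB8 was the beta gene that passed the test (chr5:141177790-141180529). PCDHB8 was 4.86 and 6.22 under siCon and 12.98 and 14.4 under siMYCN, a log2 fold change of 1.18 ± 0.180 (limma, adjusted p = 0.0436). Both siMYCN values were far above both siCon values. PCDHB8 is also the tested beta gene with the least sequence of its own: 41.6% of its 31-base words occur in no other gene's transcripts, against 74.1% to 80.8% for the other tested beta genes, so reads may be divided between it and its copies. Without PCDHB8 the summed ratio was 1.96 and 2.00.

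PCDHB2 had the largest beta difference and just missed the threshold. PCDHB2 was 3.72 and 4.21 under siCon and 14.1 and 9.74 under siMYCN, a log2 fold change of 1.36 ± 0.237 (limma, adjusted p = 0.0505). PCDHB4 was 2.83 and 3.79 under siCon and 8.60 and 8.68 under siMYCN (log2 fold change 1.17 ± 0.224, limma adjusted p = 0.0581). In both genes the siMYCN libraries were well clear of the siCon libraries, and in PCDHB2 they differed from each other. Both genes passed the filter only through their siMYCN values, so a higher level under siMYCN was a condition of their being tested.

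The other tested beta genes pointed the same way without passing. PCDHB14 was 4.48 and 5.51 under siCon and 10.0 and 11.9 under siMYCN (limma, adjusted p = 0.0581). PCDHB16, with the highest mean over the 4 libraries among beta genes, was 8.04 and 8.16 under siCon and 12.8 and 13.1 under siMYCN (limma, adjusted p = 0.0983). PCDHB15 was 4.96 and 4.19 under siCon and 7.41 and 10.1 under siMYCN (limma, adjusted p = 0.119). None of the 3 overlapped between siRNAs, but PCDHB14 and PCDHB15 passed the filter only through their siMYCN values. The 10 beta genes under a mean of 5, which the filter did not select, summed to 11.2 and 12.3 under siCon and 16.3 and 22.9 under siMYCN, ratios of 1.45 and 1.87.

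In the alpha array the summed levels of the numbered and the C-type isoforms differed in direction, and no alpha gene passed the test. Each alpha mRNA joins its own first exon to constant exons shared by the whole array, and the array ends in a pair of C-type isoforms, PCDHAC1 and PCDHAC2, whose first exons resemble the C-type exons of the gamma array more than their neighbours. The 13 numbered isoforms summed to 35.1 and 37.1 under siCon and 53.8 and 57.5 under siMYCN, ratios of 1.53 and 1.55. The C-type pair summed to 29.5 and 30.5 under siCon and 21.2 and 21.2 under siMYCN, ratios of 0.718 and 0.693. The whole array therefore differed little, with ratios of 1.16 and 1.16.

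Most of the lower C-type sum lay in PCDHAC2. PCDHAC2, an isoform known from serotonergic neurons, was 21.1 and 22.3 under siCon and 14.5 and 11.9 under siMYCN (log2 fold change -0.68 ± 0.157, limma adjusted p = 0.0740). PCDHAC1 was 8.43 and 8.27 under siCon and 6.65 and 9.33 under siMYCN, so its groups overlapped (limma, adjusted p = 0.855). Neither passed the test.

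Among the numbered alpha isoforms, PCDHA11 was 5.61 and 7.48 under siCon and 11.1 and 11.03 under siMYCN (log2 fold change 0.69 ± 0.196, limma adjusted p = 0.107). PCDHA2 was 6.61 and 6.93 under siCon and 8.25 and 9.96 under siMYCN (limma, adjusted p = 0.274). PCDHA10 was 5.95 and 5.61 under siCon and 7.83 and 7.95 under siMYCN (limma, adjusted p = 0.271). All 3 were above in both siMYCN libraries and none passed. A median of 54.8% of the 31-base words of a tested alpha gene occur in no other gene, so values of single isoforms depend on how the shared reads were divided.

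**Figure D2:**
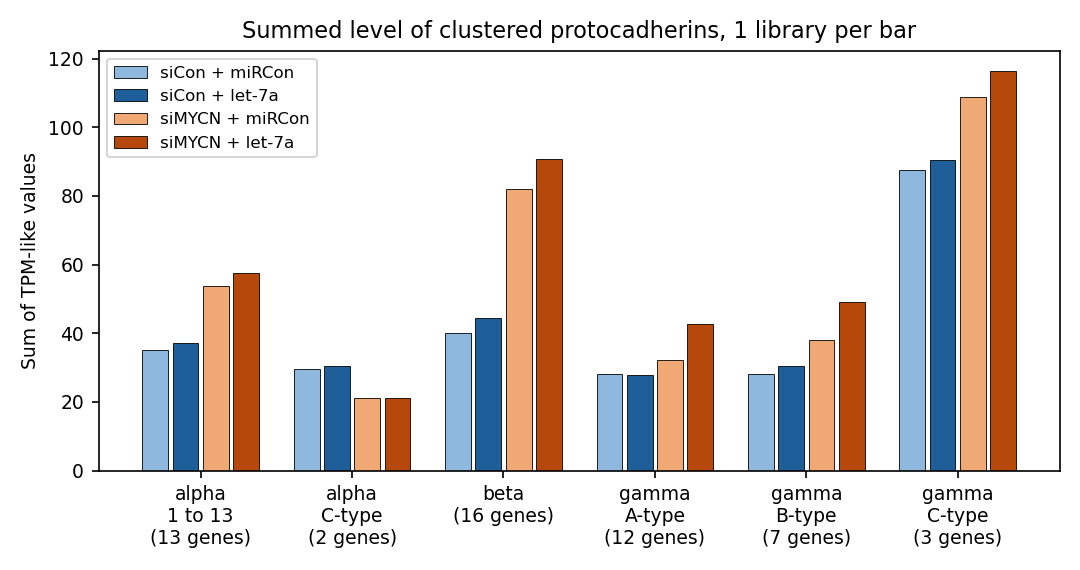
Sum of TPM-like values in each library (bars from 0, 1 library per bar) for the subgroups of clustered protocadherins, with the number of genes in each. The beta sum goes from 40.1 and 44.4 under siCon to 82.1 and 90.9 under siMYCN, and the alpha C-type sum is the one that is lower under siMYCN.

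The gamma array was led by 1 gene. PCDHGC3, a C-type isoform made in many tissues (chr5:141475947-141512979), was 80.0 and 82.7 under siCon and 99.1 and 104.7 under siMYCN. The difference was small but the groups did not overlap (log2 fold change 0.32 ± 0.080, limma adjusted p = 0.0838). The array summed to 143.9 and 148.8 under siCon and 179.0 and 208.2 under siMYCN, ratios of 1.24 and 1.40. By type the ratios were 1.14 and 1.52 for the 12 A-type genes, 1.35 and 1.61 for the 7 B-type genes and 1.24 and 1.29 for the 3 C-type genes. By whole-array sums the gamma array thus stood between the alpha and the beta array. The 13 numbered alpha isoforms alone, with ratios of 1.53 and 1.55, stood above the gamma array. The gamma C-type genes did not share the direction of the alpha C-type pair.

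None of the 8 tested gamma genes passed the test for siMYCN, though in all but PCDHGB2 both siMYCN libraries lay above both siCon libraries, against 35.6% of all genes tested. PCDHGA4 did so only by 5.58 against 5.43, and it passed the filter through its siMYCN values. By the word count used for the alpha genes, a median of 53.3% of the words of a tested gamma gene occur in no other gene. Values of single gamma genes therefore also depend on how the shared reads were divided, and the genes cannot be counted as separate observations. PCDHGB3 had the largest difference, with 4.81 and 6.03 under siCon and 7.48 and 10.63 under siMYCN (log2 fold change 0.64 ± 0.198, limma adjusted p = 0.124). PCDHGB2 was 4.19 and 6.15 under siCon and 5.96 and 10.2 under siMYCN, so 1 siMYCN library fell within the siCon range. PCDHGB1 was 11.5 and 9.54 under siCon and 14.2 and 14.03 under siMYCN (limma, adjusted p = 0.202). PCDHGC4, an isoform known for interneuron survival, was 6.33 and 6.09 under siCon and 7.47 and 9.35 under siMYCN (limma, adjusted p = 0.303). The remaining tested gamma genes, PCDHGA4, PCDHGA6 and PCDHGB7, had log2 fold changes of 0.44, 0.31 and 0.39.

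The nearest genes outside the arrays showed no shared direction. The 10 nearest tested genes outside the arrays, 5 on each side, had a median log2 fold change for siMYCN of 0.013, from -0.47 (NDUFA2) to 0.38 (ARAP3), and 0 of them were called. TAF7, a general transcription factor gene within the region, was 115 and 115 under siCon and 145 and 148 under siMYCN (limma, adjusted p = 0.0644). These are levels beside the arrays, with no test of a difference between arrays and neighbours.

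**Figure D3:**
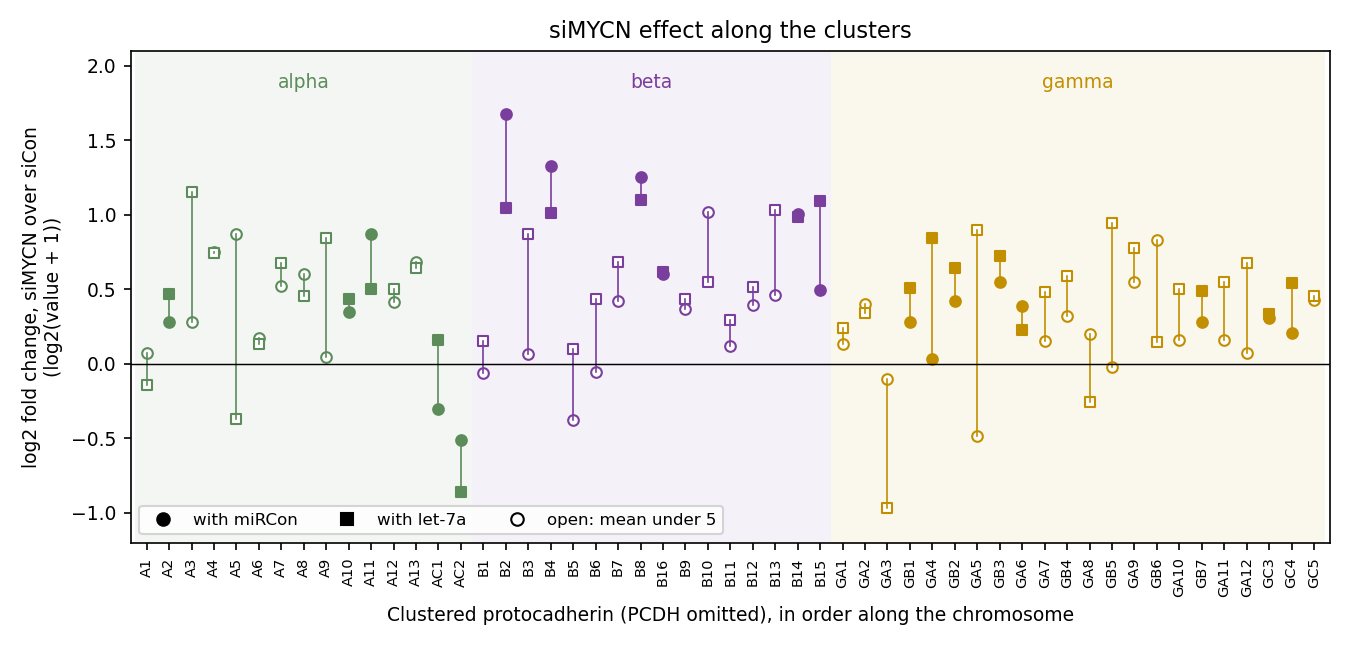
log2 fold change of siMYCN over siCon, on log2(value + 1), for all 53 clustered protocadherins in chromosomal order; circles are the pair with the control mimic, squares the pair with let-7a, and open symbols mark genes with a mean under 5. Most symbols lie above 0, the filled beta genes reach 1.67 (PCDHB2), and PCDHAC2 at the end of the alpha array lies at -0.51 and -0.86.

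The delta-1 protocadherins, which are single genes with long cytoplasmic tails, had negative values for siMYCN without passing the test. PCDH1 (chr5:141853111-141879246, minus strand), which also lies on chromosome 5 but outside the arrays, was 48.5 and 50.8 under siCon and 35.4 and 29.5 under siMYCN (log2 fold change -0.60 ± 0.123, limma adjusted p = 0.0621). PCDH7 was 13.6 and 12.8 under siCon and 8.26 and 5.73 under siMYCN (log2 fold change -0.85 ± 0.19, limma adjusted p = 0.0707). In both genes the siMYCN libraries lay below the siCon libraries, and the lowest value was the one with let-7a. PCDH9 was 17.8 and 12.9 under siCon and 13.7 and 13.6 under siMYCN, so its groups overlapped (limma, adjusted p = 0.632).

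The delta-2 protocadherins, which bind the actin-regulating WAVE complex, did not pass the test either. PCDH10 was 36.8 and 41.3 under siCon and 39.0 and 53.4 under siMYCN (limma, adjusted p = 0.290). PCDH18 was 12.8 and 12.2 under siCon and 12.1 and 15.1 under siMYCN. PCDH17 was 8.08 and 6.51 under siCon and 7.66 and 12.7 under siMYCN. In all 3 the highest value was in the library with both siMYCN and let-7a.

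By size rather than by the test, 8 of the 29 genes were at least 1.5-fold higher in both pairs (CDH2, CDH10, CDH11, PCDHB2, PCDHB4, PCDHB8, PCDHB14 and PCDHB16), against 2.85% of all genes. CDH24 and PCDH7 were at least 1.5-fold lower in both pairs, against 1.61% of all genes. Both siMYCN libraries lay above both siCon libraries in 19 of the 29, against 35.6% of all genes, and below in 4 (CDH24, PCDH1, PCDH7 and PCDHAC2), against 21.1% of all genes. The median log2 fold change of the 29 was 0.40, against 0.056 for all genes tested, and the bias of the filter named above applies to each of these figures. Among the 55 genes under a mean of 5 with any value, the siMYCN libraries lay above in 31 and below in 2, against 20% and 14.9% of all 7006 such genes. Most genes counted as higher here are clustered protocadherins. These share sequence with one another, so they cannot be counted as separate observations.

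let-7a made no gene of the table pass the test. Called higher were 0 of the 29, against 0% of all genes, and called lower were 0, against 0% of all genes (limma, smallest adjusted p = 0.663). An unadjusted p under 0.05 was reached by 697 genes, or 7.48% of all genes, and by 2 of the 29. At least 1.5-fold in both pairs, 0 were higher, against 0.204% of all genes, and 0 were lower, against 0.257% of all genes. Both let-7a libraries lay above both control-mimic libraries in 2 of the 29, against 8.9% of all genes, and below in 1, against 16.2% of all genes. Without the filter these counts were 6 higher and 7 lower of 84 genes, against 10.9% and 14.8% of all genes with any value.

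The genes that did not overlap between mimics were PCDHGB2, PCDH10 and PCDH9. With the control mimic PCDHGB2 was 4.19 (siCon) and 5.96 (siMYCN), and with let-7a it was 6.15 and 10.2 (log2 fold change 0.57 ± 0.207, limma unadjusted p = 0.0368, adjusted p = 0.663). PCDH10 was 36.8 and 39.0 with the control mimic and 41.3 and 53.4 with let-7a (log2 fold change 0.30 ± 0.118, limma unadjusted p = 0.0473, adjusted p = 0.663). PCDH9 was 17.8 and 13.7 with the control mimic and 12.9 and 13.6 with let-7a, so the nearest libraries stood at 13.7 and 13.6. CDH2 was 108 and 169 with the control mimic and 112 and 228 with let-7a (limma, adjusted p = 0.667).

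The seed of let-7a and the sites it could pair with are shown because the mimic acts by such pairing. The mature miRNA (RefSeq, GRCh38.p14, chr9:94175962-94175983, plus strand) is written with bases 2 to 8 in capitals. The sites are 22 bases of 3′UTR (GENCODE 29, GRCh38) with the word searched in capitals, written as DNA in the sense of the mRNA.
let-7a: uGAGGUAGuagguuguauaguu
PCDH9 first site (chr13:67214884-67214905, minus strand): tgttacctgtttttCTACCTCc
PCDH9 second site (chr13:67204523-67204544, minus strand): catgcacttgttttCTACCTCc
PCDH10 site (chr4:133192471-133192492, plus strand): aattatattgtcattTACCTCA
PCDHA10 site (chr5:140867162-140867183, plus strand): taaggttcatttccCTACCTCg
The words searched on the mRNA strand were CTACCTCA (8mer), CTACCTC (7mer-m8) and TACCTCA (7mer-A1), of which the first contains the other 2. CTACCTC pairs with bases 2 to 8, and TACCTCA pairs with bases 2 to 7 and has an A opposite base 1.

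Only the longest annotated 3′UTR of each gene was searched. Of the 29 genes, 3 held any of these words, or 10.3%, against 19.0% of the 8916 tested genes with an annotated 3′UTR. None of the 29 held the 8mer, against 4.42% of tested genes. PCDH9, with 2 sites in a 3′UTR of 24327 bases, had a let-7a difference (log2) of -0.44 under siCon and -0.017 under siMYCN. That 3′UTR lies near the start of PCDH9, in an isoform that stops far short of the gene's end at chr13:66302834 (minus strand). Whether these cells make that isoform was not tested. PCDH10, with 1 site, had 0.16 and 0.44. The PCDHA10 site lies in an isoform's 3′UTR of 9657 bases, far before the gene's end at chr5:141012344. Whether these cells make that isoform was not tested. PCDHA10 had -0.073 and 0.018. The 3′UTR of 2407 bases that 11 of 15 alpha genes share and the one of 1806 bases that 17 of 22 gamma genes share held 0 sites. PCDHGB2, the gene with the largest let-7a value, uses that gamma 3′UTR.

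**Figure D4:**
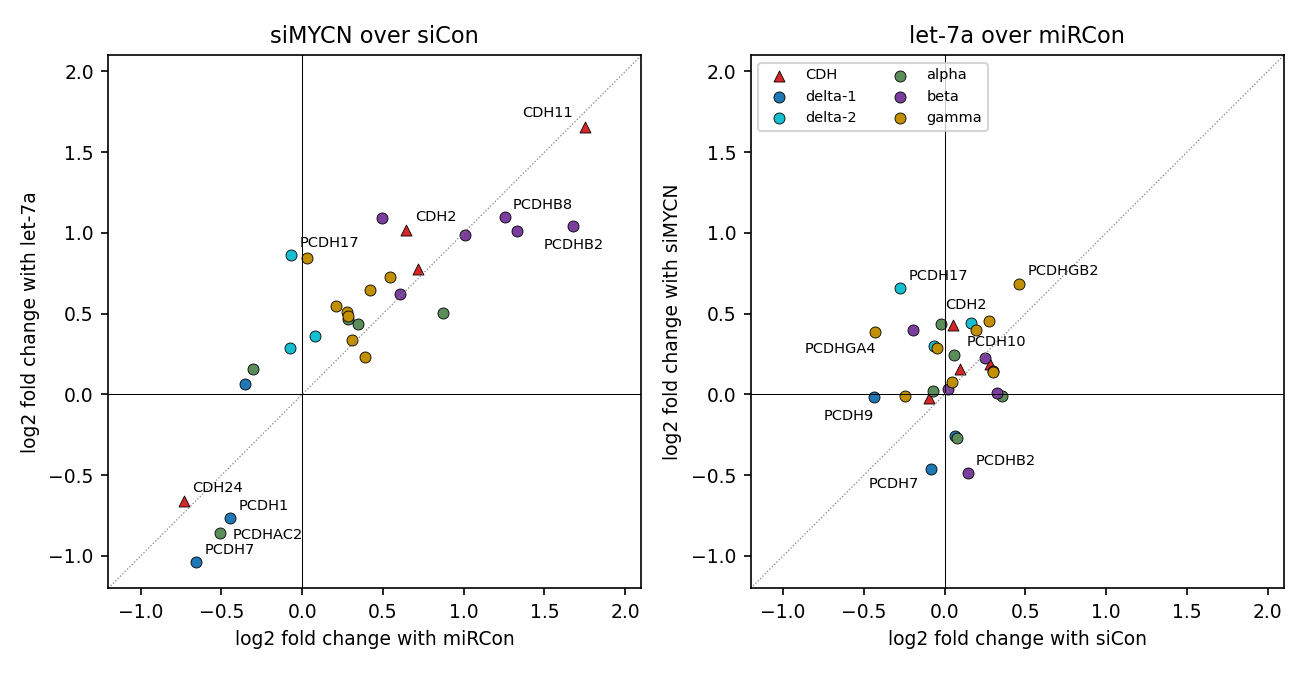
log2 fold change, on log2(value + 1), of the 29 genes in the first pair of libraries (x axis) against the second pair (y axis), for siMYCN over siCon (left) and let-7a over miRCon (right), coloured by family; the dotted line marks equal values. For siMYCN, CDH11 lies at 1.75 and 1.66 and CDH24 at -0.73 and -0.66, while for let-7a the points lie around 0 and 11 of the 29 have opposite signs in the 2 pairs.

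With both treatments together, read as the library with siMYCN and let-7a against the one with siCon and miRCon and with no test, CDH11 differed by 1.94 on the log2 scale, PCDHB8 by 1.40, PCDHGB2 by 1.11 and CDH2 by 1.07. CDH24 differed by -0.75 and PCDH7 by -1.12. The 89 genes summed to 650 and 659 under siCon and to 755 and 871 under siMYCN, or from 0.0758% to 0.101% of the library total.

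Genes that act with cadherins were read from lists of 68 partners, 41 of them tested. For siMYCN 1 of the 41 was called, against 2.07% of all genes called higher and 1.36% called lower. It was BRK1, a small subunit of the WAVE complex. BRK1 was 198 and 221 under siCon and 266 and 290 under siMYCN (log2 fold change 0.41 ± 0.0631, limma adjusted p = 0.0437). For let-7a 0 of the 41 were called, and 7 (siMYCN) and 5 (let-7a) had an unadjusted limma p under 0.05, against 26.4% and 7.48% of all genes.

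Among 9 tested catenins and junction linkers, 0 were called. CTNNA1, the alpha-catenin that couples cadherins to actin, was 41.1 and 35.6 under siCon and 42.6 and 28.1 under siMYCN. ARVCF, a catenin of the p120 family, was 16.6 and 19.4 under siCon and 9.87 and 15.3 under siMYCN (siMYCN, limma adjusted p = 0.130). CTNNB1, or beta-catenin, was between 81.3 and 95.5 in all 4 libraries.

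Among 7 tested members of other cadherin families 0 were called. CLSTN2, a synaptic calsyntenin, was 57.9 and 53.4 under siCon and 38.1 and 43.3 under siMYCN (limma, adjusted p = 0.0914), and CLSTN3 was 10.8 and 13.6 under siCon and 15.5 and 16.1 under siMYCN. Of the 7 tested cleavage genes 0 were called. ADAM10, the protease that sheds N-cadherin and gamma protocadherins, was 32.4 and 30.7 under siCon and 43.6 and 42.5 under siMYCN (limma, adjusted p = 0.0784).

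The genes for protocadherin promoter choice were not called either. CTCF, which binds the clustered promoters and their enhancers, was 58.5 and 62.7 under siCon and 67.6 and 70.4 under siMYCN (limma, adjusted p = 0.251). PTK2, the focal adhesion kinase that alpha and gamma protocadherins are known to inhibit, was 12.7 and 8.95 under siCon and 11.8 and 8.84 under siMYCN. Of 4 tested cadherin repressors 0 were called: SNAI1 was 27.2 and 23.7 under siCon and 25.5 and 13.8 under siMYCN, and ZEB1 was 9.25 and 8.17 under siCon and 13.7 and 12.5 under siMYCN (limma, adjusted p = 0.121).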

How the data were processed

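One deposited table gives 1 natural log value per gene and library, ln(1 + x). The authors' log base is not given in the sources used here and was read from the values: exp(value) - 1 sums to between 855811 and 862049 in each library, like TPM. The submitters' processing notes name HISAT 0.1.6, Salmon 0.3.2 and GRCh38. The table has 19837 rows, from which 11 vector rows and 92 spike-in control rows (summing to at most 1.31 per library) were dropped, and 28 rows with date-like names were kept unnamed.

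Genes with a mean of at least 5 (9324) were tested with limma 3.58.1 in R 4.3.3 (trend, log2(value + 1), siRNA and mimic as additive terms, 1 residual and 4.30 prior degrees of freedom, Benjamini-Hochberg threshold 0.05), after testing on simulated data. Each p-value tests a treatment's effect against an error taken from the departure from additivity in these 4 libraries, moderated over all genes tested. That error stands for no replicate spread. Members with a mean of at least 5, called partners and up to 2 partners a list with the largest effect were named; CTCF, CTNNB1, CDH4 and the neighbouring genes were added after their values were seen. A few marker and partner values are not reported here. Sequences came from RefSeq and GENCODE 29, read in Python 3.11.15. Alternatives were pseudocounts, filters, rescaling, trend, robust variance, single pairs and rows left out of sums. The members and lists were chosen with earlier results of these data known.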

Additional observations from a re-analysis of the deposited data

Results flagged for a closer look

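Some genes had opposite signs in the pair of libraries with one co-transfection and in the pair with the other. The difference between the pairs was not tested, since each pair is 1 library against 1. It is given as the second pair's log2 fold change minus the first's. Opposite signs for siMYCN occurred in 4 of the 29 genes, or 13.8%, against 29.4% of all genes tested: PCDH17 differed by 0.93, PCDHAC1 by 0.458, PCDH9 by 0.421 and PCDH18 by 0.364.

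For let-7a, 11 of the 29 genes, or 37.9%, had opposite signs, against 44.0% of all genes tested. PCDH17 again had the widest gap, 0.93, with a let-7a log2 fold change of -0.27 under siCon and 0.66 under siMYCN. PCDHGA4 differed by 0.815, PCDHB15 by 0.599, PCDHAC1 by 0.458, PCDH18 by 0.364, PCDHGC4 by 0.338 and PCDHA10 by 0.092, all with the higher value under siMYCN. PCDHB2 differed by -0.631, PCDHA11 by -0.366, PCDHAC2 by -0.349 and PCDH1 by -0.32, with the lower value under siMYCN.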

How the results depend on the processing

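The calls for siMYCN depended on the variance model and the filter. Without a trend limma called 0 genes higher and 0 lower (2221 at an unadjusted p under 0.05), and with no filter on low values also 0 and 0 (2791), so 0 cadherins or protocadherins were called in either direction by both. CDH2, CDH11, PCDHB8 and CDH24 then had adjusted p-values of 0.132, 0.129, 0.129 and 0.132 without a trend and 0.193 each with no filter. With a mean of at least 20, only 5672 genes and 6 of the 29 members were tested, and PCDHB8 was not among them. Of those genes 310 were called higher and 196 lower. Of the 6 members 2 were higher, CDH2 and CDH11, and 2 lower, PCDH1 joining CDH24 (limma, adjusted p = 0.0471). After rescaling by median ratios, 334 genes were called higher and 409 lower, against 193 and 127 as deposited, and 6 members were higher and 4 lower: PCDHB2, PCDHB4, PCDHB14, PCDH1, PCDH7 and PCDHAC2 were added. The cause was not tested. The siMYCN fold changes of the 4 called genes kept their direction with other pseudocounts, after rescaling and in each single pair. The filter, trend and robust settings leave a gene's fold change as it is, so those runs could not alter a direction. The alpha sum's siMYCN difference of 0.21 (log2) became 0.15 after rescaling, 0.20 over rows with a mean of at least 1 and 0.61 without the C-type pair, and the beta difference of 1.02 became 0.95, 1.03 and, without PCDHB8, 0.97. For let-7a the alpha sum's 0.068 became 0.095, 0.074 and 0.087 and the beta sum's 0.14 became 0.17, 0.15 and 0.13. The let-7a value of PCDHGA4, -0.021, became 0.0017 with a pseudocount of 5 and 0.00043 after rescaling. Rows left out of sums were chosen after seeing the data. No pairing beyond the shared co-transfection was possible, since each group is 1 library, and leaving out any library leaves no residual. Counting error is unknown, since the values carry no depth.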
